A study of Homo sapiens with 6 samples.

Results

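The genes described here are 10 genes of the Notch pathway, taken by name from a table of 58051 genes: the receptors NOTCH1, NOTCH2, NOTCH3 and NOTCH4, the ligands JAG1, JAG2 and DLL4, and the target genes HES1, HEY1 and HEY2. All 10 were found in the table. They were read in 6 RNA-seq libraries labelled as the line NTera-2 (NT2), which was derived from human testicular embryonal carcinoma. In 3 libraries the cells had received mimics of the piRNA piR-36249, and in the other 3 a scramble control. piRNAs are short RNAs that bind PIWI proteins and are best studied in the germ line. The labels disagree: the genotype field and the design text name a knockdown of piR-36249, whereas the titles and the treatment field name mimics. The groups follow the titles, and every difference is mimic minus scramble. Whether replicates are separate cultures is not stated, and the p-values therefore describe the spread of these 6 libraries, part or all of which may be technical.

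Notch receptors are membrane proteins that are activated by ligands on a neighbouring cell. Ligand binding lets a protease and then the gamma-secretase complex cut the receptor, and the released intracellular part joins the DNA-binding protein RBPJ in the nucleus and switches on target genes. Among the best known targets are the HES and HEY genes, which code for repressors of the basic helix-loop-helix class. In vessels the pathway is known for the choice between tip and stalk cells and for arterial identity, where DLL4 is a leading ligand.

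The libraries held 48.0 to 62.7 M reads, as recovered from the deposited values, and between 11138 and 11211 genes were above 1 FPKM (a level scaled to gene length and sequencing depth). The line's label was read against marker genes: of 10 genes of pluripotent cells, NANOG, SOX2, TDGF1, SALL4 and L1TD1 were listed at 0 in every library, and POU5F1 was at most 0.0706 FPKM. The other way, LIN28B was at 9.94 to 15.6 and DNMT3B at 2.82 to 5.24 FPKM, and these 2, the only ones of the 10 that could be tested, were both called higher with mimic (limma adjusted p = 0.014 and 0.00037). Of 12 endothelial genes, 9 were above 1 FPKM in every library, among them CDH5 (86.4 to 127.5 FPKM). These levels, with NANOG and SOX2 at 0 and an endothelial cadherin among the higher genes, go against the label of an embryonal carcinoma line, and the libraries are called by their label only. The endothelial genes' summed level was 707.6 to 769.8 FPKM with mimic and 591.7 to 634.5 with scramble. EGFL7 was the largest part of these sums (mean 311.4 FPKM with mimic, 251.4 with scramble). Of the 9 endothelial genes that could be tested 7 were called higher, beside 18.7% of all tested genes. The other 2, ESAM (mean 145.5 and 136.7 FPKM, limma adjusted p = 0.168) and FLT1 (5.07 and 4.68, limma adjusted p = 0.226), were not called. KDR, EMCN and VWF of that list stayed at or below 0.525 FPKM. Of 6 arterial genes GJA4 and CXCR4 were listed at 0, EFNB2 was at most 0.00715 and GJA5 at most 0.00562 FPKM. The other 2 arterial genes were above 1 FPKM in every library and went opposite ways. SOX17 (mean 1.83 FPKM with mimic, 1.21 with scramble) was called higher (limma adjusted p = 0.029). UNC5B (3.07 and 3.64) was called lower (limma adjusted p = 0.0496). Fibroblast genes summed to 6.16 to 6.74 FPKM with mimic and 4.53 to 4.90 with scramble. THY1, the only one of 7 above 1 FPKM in every library, made up 5.18 to 5.60 and 3.88 to 4.34 of these sums. THY1 was called higher with mimic (limma adjusted p = 0.0041). COL1A1 (mean 0.267 FPKM with mimic, 0.106 with scramble), LUM (0.600 and 0.370) and COL3A1 (0.144 and 0.0782) had higher means with mimic but were too low to be tested. COL1A2, DCN and PDGFRA were at most 0.0245 FPKM. Of 7 genes of mural cells, which surround vessels, 1 was above 1 FPKM in every library, and the list summed to 2.99 to 3.38 FPKM with mimic and 2.67 to 2.82 with scramble. ACTA2 and RGS5 were its highest genes, and neither was called. The list includes NOTCH3 (mean 0.0106 FPKM with mimic, 0.0479 with scramble), and PDGFRB went the other way (0.332 and 0.139). Both were too low to be tested. The part of these levels in the results on Notch genes was not tested. In bulk RNA, fewer cells that make a transcript and less of it per cell cannot be told apart.

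Because HES1 and HEY2 are the target genes that rose, the 250 bases before their RefSeq starts (GRCh38.p14) are shown, with the core of the RBPJ binding site, TGGGAA or its reverse complement TTCCCA, in capitals. HES1 lies on the plus strand, and its window is chr3:194135898-194136147. HEY2 is also on the plus strand, and its window is chr6:125749382-125749631, inside the gene as GENCODE 29 draws it, since that annotation starts the gene further upstream.
HES1: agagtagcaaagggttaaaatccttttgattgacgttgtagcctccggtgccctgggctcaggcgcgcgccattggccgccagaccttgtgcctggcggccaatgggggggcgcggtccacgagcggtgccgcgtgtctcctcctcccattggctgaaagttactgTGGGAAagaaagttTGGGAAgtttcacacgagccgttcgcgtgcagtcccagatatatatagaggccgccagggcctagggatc
HEY2: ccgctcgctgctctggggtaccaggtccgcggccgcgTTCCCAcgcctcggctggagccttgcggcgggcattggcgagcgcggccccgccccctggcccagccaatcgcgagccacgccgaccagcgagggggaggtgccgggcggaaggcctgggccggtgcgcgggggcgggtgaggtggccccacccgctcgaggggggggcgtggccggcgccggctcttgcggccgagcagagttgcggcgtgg
The HES1 window holds the core 2 times, starting 84 and 70 bases before the start, both on the gene's own strand. The HEY2 window holds it 1 time, 213 bases before the start and on the opposite strand. Of 35116 windows of this length 20.8% hold the core at least 1 time and 2.90% at least 2 times. The longer form GTGGGAA, searched on both strands and containing the core, is in the HES1 and HEY2 windows 1 time each and in 5.43% of all windows. The N-box CACNAG, a site of HES proteins, was found 3 times in HES1, 1 time each in NOTCH3 and NOTCH4 and in none of the other 6 windows, HEY2 among them. Of all windows 32.0% hold it at least 1 time and 6.32% at least 2 times. Of the 10 genes 9 had an entry in the promoter table. HEY1, the remaining target, had none and could not be compared with HES1 and HEY2. The windows of NOTCH1, NOTCH2, NOTCH3, NOTCH4, JAG1, JAG2 and DLL4 had no match to TGGGAA. These are matches of letters in a short window, not measured binding sites.

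By level, NOTCH1 stood highest, with a range over the 6 libraries of 39.1 to 48.4 FPKM, above 91.4% of the tested genes. NOTCH2 (9.17 to 16.2) and HES1 (5.90 to 14.5) came next and their ranges overlapped, as did those of HES1 and JAG1 (5.57 to 7.19). DLL4 (3.60 to 5.52) and HEY2 (1.51 to 2.71) each lay apart from their neighbours in the order. JAG2 (0.494 to 1.04) overlapped HEY1 (0.498 to 0.819), and HEY1 overlapped NOTCH4 (0.385 to 0.538). NOTCH3 was lowest, at 0.00197 to 0.0585 FPKM. NOTCH3 and NOTCH4 had a mean under 0.5 FPKM over the 6 libraries, the lower limit for the test, so 8 of the 10 genes were tested.

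**Figure D1:**
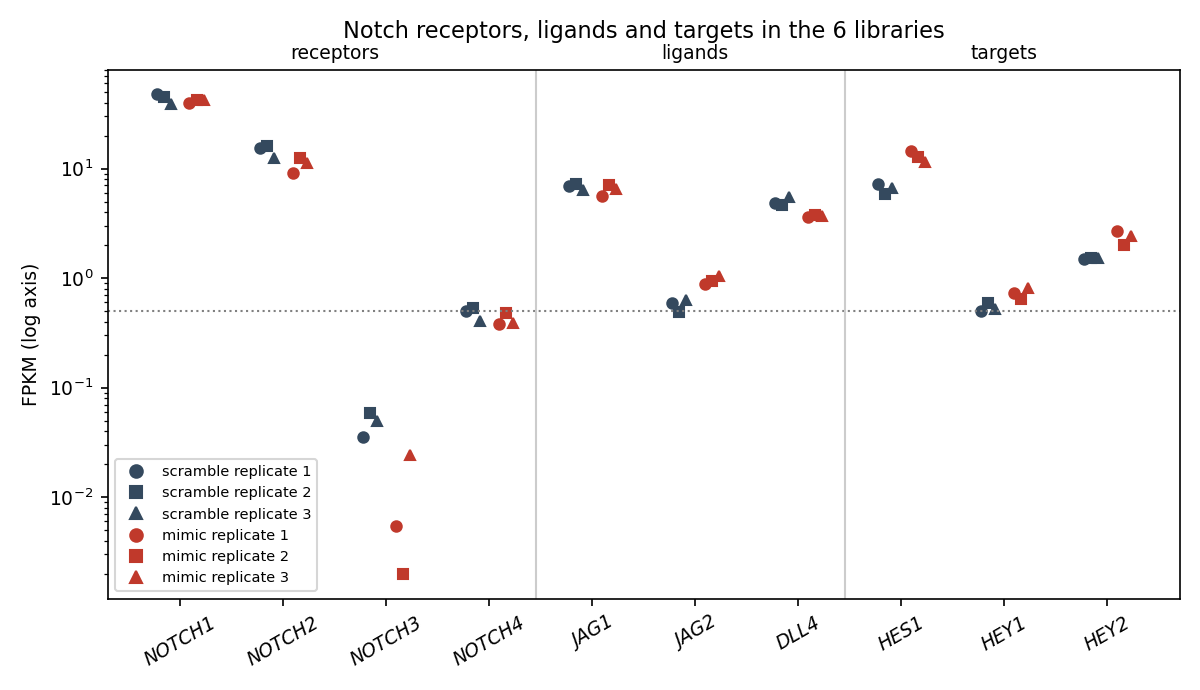
FPKM of the 10 Notch genes on a log axis, 1 point per library, with scramble libraries in dark blue and mimic libraries in red and the symbol giving the replicate. The dotted line marks the lower limit of the test, a mean of 0.5 FPKM; HES1, HEY1, HEY2 and JAG2 show mimic points above all scramble points, and DLL4 and NOTCH3 show them below.

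Across the 8 tested genes, HES1, HEY2 and JAG2 rose, NOTCH2 and DLL4 fell, and NOTCH1, JAG1 and HEY1 did not pass the test, which was limma on log2(FPKM + 1) with Benjamini-Hochberg adjustment over all 12912 tested genes at 0.05. Thus 3 of 8 were called higher and 2 of 8 lower, beside 18.7% higher and 16.8% lower among all tested genes (35.5% in either direction). The groups did not overlap in 5 of the 8, with mimic above in 4 and below in 1, beside 49.2% of all tested genes in either direction, 26.0% above and 23.2% below. The median log2 fold change was 0.04 over the 8 genes and 0.0025 over all tested genes. With so many genes called in these libraries, counts over 8 genes describe the set and do not set it apart.

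**Figure D2:**
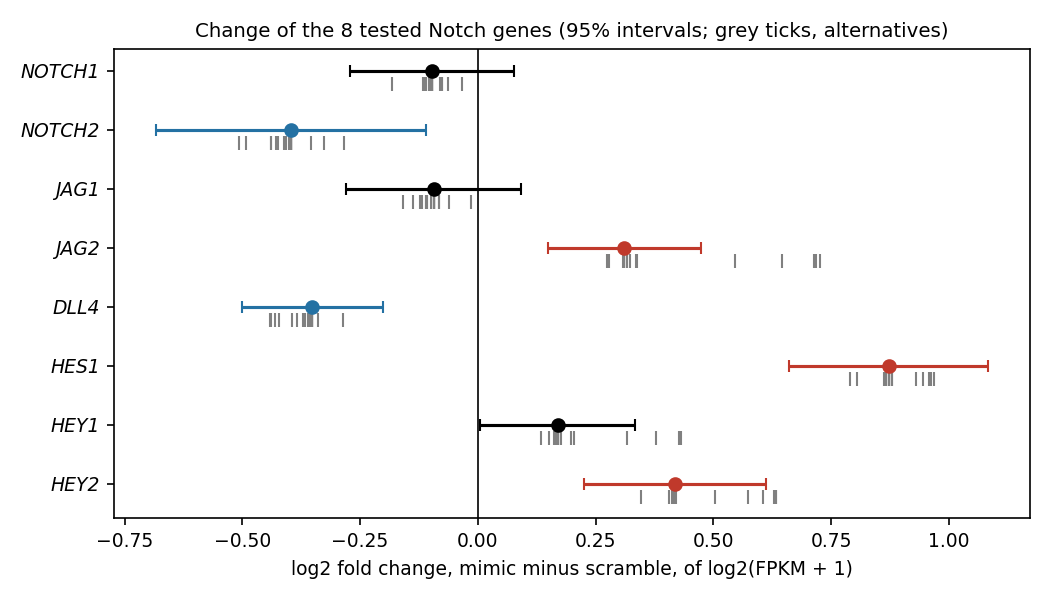
Log2 fold change, mimic minus scramble, of the 8 tested genes with its 95% interval from limma (red higher, blue lower, black not called). Grey ticks give the value under each alternative, including other pseudocounts, and HES1 (0.87) lies farthest from 0. The ticks of JAG2, HEY1 and HEY2 that lie farthest to the right come from smaller pseudocounts, the TPM scale or recovered reads. Leaving out 1 library also moved them to the right, up to 0.34 for JAG2, 0.20 for HEY1 and 0.50 for HEY2.

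Among the targets, HES1 changed most. HES1 (ENSG00000114315, chromosome 3, 194136145 to 194138732, plus strand, GRCh38) codes for a repressor that also shuts down its own promoter. Its level was 7.21, 5.90 and 6.64 FPKM in scramble replicates 1 to 3 and 14.5, 12.7 and 11.5 in mimic replicates 1 to 3. Every mimic library was above every scramble library, and the lowest mimic value was 11.5. The mean went from 6.59 ± 0.656 to 12.9 ± 1.51 FPKM (SD, n = 3 each), a ratio of 1.96. The log2 fold change was 0.87 (SE 0.091, adjusted p = 0.00036). These levels rest on 643 to 1754 reads per library.

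HEY2 (ENSG00000135547, chromosome 6, 125747664 to 125761269, plus strand), a repressor known from heart and arterial development, was at 1.51, 1.52 and 1.51 FPKM with scramble and at 2.71, 1.98 and 2.42 with mimic. The scramble libraries were close together, and the mimic libraries were all higher and more spread. HEY2 rose from 1.51 ± 0.0068 to 2.37 ± 0.366 FPKM (SD, n = 3 each), a ratio of 1.57, with a log2 fold change of 0.42 (SE 0.083, adjusted p = 0.0067). The antisense gene HEY2-AS1, which shares no exon bases with HEY2, was at most 0.0428 FPKM.

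HEY1 (ENSG00000164683, chromosome 8, 79764010 to 79767863, minus strand), a close relative of HEY2, was at 0.498, 0.598 and 0.520 FPKM with scramble and at 0.728, 0.647 and 0.819 with mimic. All mimic values were above all scramble values, at 90 to 138 reads per library. The ratio of means was 1.36, and the log2 difference of 0.17 (95% interval 0.0049 to 0.33) had an adjusted p of 0.101, so that HEY1 did not pass. It passed when limma was run without a variance trend (adjusted p = 0.048). The size of the change was not compared between HES1, HEY1 and HEY2 by a test.

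Among the ligands, JAG2 and DLL4 went opposite ways and JAG1 did not pass. JAG2 (ENSG00000184916, chromosome 14, 105140981 to 105168824, minus strand), a ligand of the Jagged type, was at 0.598, 0.494 and 0.625 FPKM with scramble and at 0.880, 0.934 and 1.04 with mimic. The groups lay apart. JAG2 rose from 0.572 ± 0.0691 to 0.951 ± 0.081 FPKM (SD, n = 3 each), a ratio of 1.66, with a log2 fold change of 0.31 (SE 0.070, adjusted p = 0.011). At such low levels the pseudocount of 1 shrinks the value: with voom on recovered reads it was 0.71 (adjusted p = 0.0010). The same step gave 0.63 for HEY2 and 0.43 for HEY1, against 0.42 and 0.17. An exon stretch of 469 bases, 7.33% of the exon length of JAG2, is shared with ENSG00000257622, a transcript listed at 0 in every library.

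DLL4 (ENSG00000128917, chromosome 15, 40929333 to 40939073, plus strand), the Delta-type ligand of vessel sprouting, was at 4.81, 4.61 and 5.52 FPKM with scramble and at 3.60, 3.74 and 3.70 with mimic. Every mimic library was below every scramble library. DLL4 fell from 4.98 ± 0.477 to 3.68 ± 0.0707 FPKM (SD, n = 3 each), a ratio of 0.739, with a log2 fold change of -0.35 (SE 0.064, adjusted p = 0.0046).

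JAG1 (ENSG00000101384, chromosome 20, 10637684 to 10673999, minus strand), the most abundant of these ligands, was at 6.95, 7.19 and 6.37 FPKM with scramble and at 5.57, 7.02 and 6.50 with mimic. The groups overlapped. The log2 difference was -0.09 (95% interval -0.28 to 0.09, adjusted p = 0.394).

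As a share of the summed FPKM of these 3 ligands, JAG2 made up 4.62% ± 0.524 with scramble and 8.66% ± 0.637 with mimic, and DLL4 40.2% ± 3.48 and 33.6% ± 2.02 (SD, n = 3 each). The sum of the 3 ligands was 12.4 ± 0.112 FPKM with scramble and 11.0 ± 0.851 with mimic. The sum of the 3 targets was 8.64 ± 0.598 with scramble and 16.0 ± 1.71 with mimic, and HES1 held 76.1% ± 2.35 and 80.6% ± 2.41 of it. The target sum was higher in every mimic library than in any scramble library, and no test was made of these sums and shares. They cover only these 6 genes and do not stand for all ligands or targets. Outside them, HES7 measured 22.5 FPKM with scramble and 16.2 with mimic, HES2 3.43 and 5.35, and the ligand DLL1 1.80 and 2.75.

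**Figure D3:**
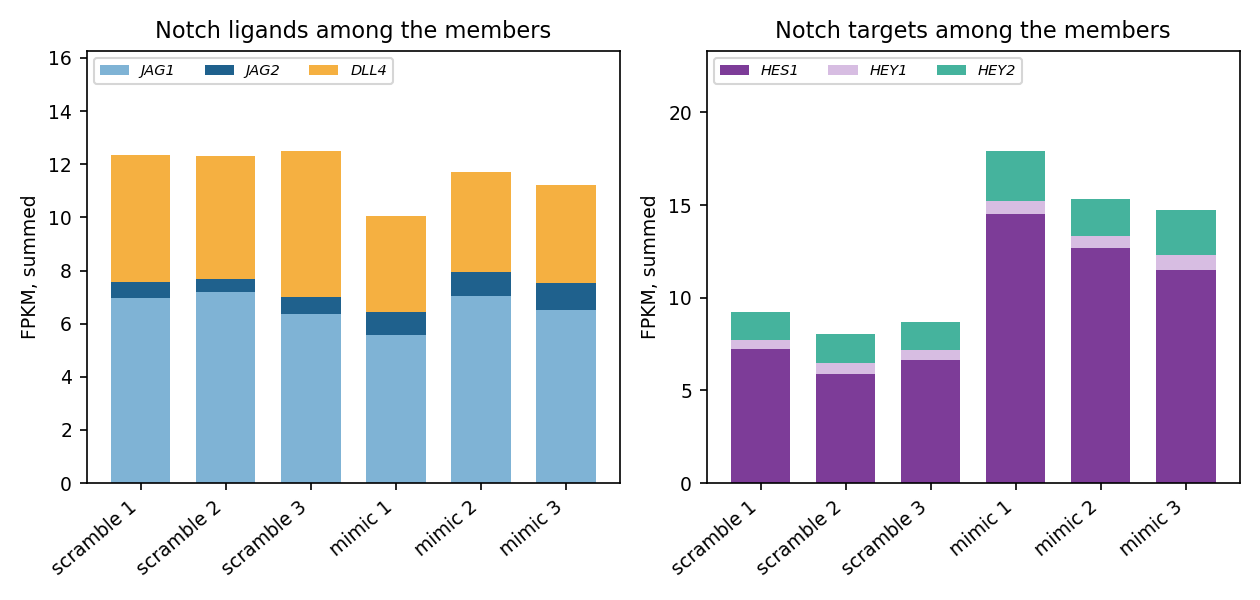
Stacked FPKM of the ligands JAG1, JAG2 and DLL4 (left) and of the targets HES1, HEY1 and HEY2 (right) in each library, from 0. The ligand stacks lie between 10.05 and 12.5 FPKM, and the target stacks between 8.02 and 9.22 with scramble and between 14.7 and 17.9 with mimic.

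Among the receptors no gene rose. NOTCH1 (ENSG00000148400, chromosome 9, 136494433 to 136545786, minus strand), by level the main receptor here, was at 48.4, 45.4 and 39.1 FPKM with scramble and at 39.3, 42.3 and 42.1 with mimic. The groups overlapped, with scramble replicate 3 the lowest library of all. The log2 difference was -0.10 (95% interval -0.27 to 0.08, adjusted p = 0.350). Without scramble replicate 3 it was -0.18 and passed the test (adjusted p = 0.034).

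NOTCH2 (ENSG00000134250, chromosome 1, 119911553 to 120069626, minus strand) was at 15.6, 16.2 and 12.4 FPKM with scramble and at 9.17, 12.6 and 11.1 with mimic. Mimic replicate 2 was above scramble replicate 3, so the groups overlapped slightly. NOTCH2 fell from 14.7 ± 2.03 to 11.0 ± 1.71 FPKM (SD, n = 3 each), a ratio of 0.744, with a log2 fold change of -0.40 (SE 0.124, adjusted p = 0.040). This call was close to the threshold: leaving out mimic replicate 1 or 3, or scramble replicate 1 or 2, ended it (adjusted p up to 0.114), as did 5 other alternatives (up to 0.155). The near-identical NOTCH2NLA, a human-specific partial copy of NOTCH2 whose reads can be confused with it, was at 0.0453 to 0.250 FPKM. How many reads were confused was not tested, so NOTCH2 is uncertain for that reason too.

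NOTCH3 (ENSG00000074181, chromosome 19, 15159038 to 15200981, minus strand), a receptor known from smooth muscle cells and pericytes, was near the bottom of the scale. It was covered by 21, 29 and 25 reads with scramble and by 3, 1 and 11 with mimic, worth 0.0356, 0.0585 and 0.0497 FPKM and 0.00545, 0.00197 and 0.0244 FPKM. The groups did not overlap, and mimic replicate 3 held 11 of the 15 mimic reads. The ratio of means was 0.221, and 0.0773 without mimic replicate 3. The authors' deposited table gives NOTCH3 a log2 fold change of -2.22 with a standard error of 0.683 and an adjusted p of 0.0050, and it is the 1 gene of the 10 in that list. With limma's voom on recovered reads of all genes with at least 10 reads, added after seeing the data, NOTCH3 had a log2 fold change of -2.66 (adjusted p = 0.010), while limma on log2(FPKM + 1) with no lower limit gave -0.05 and adjusted p = 0.102. At 1 to 29 reads this is a difference at trace level.

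NOTCH4 (ENSG00000204301, chromosome 6, 32194843 to 32224067, minus strand), a receptor known mainly from endothelium, was at 0.502, 0.538 and 0.408 FPKM with scramble and at 0.385, 0.480 and 0.389 with mimic. The groups overlapped and the ratio of means was 0.866. Of its exon length 1.01% is shared with GPSM3, a gene at 48.5 to 59.5 FPKM, so some of its reads could be counted for either gene or for none.

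As a check without a model, exact two-sided permutation tests of log2(FPKM + 1) over the libraries gave p = 0.1, the smallest that 3 against 3 allow, for HES1, HEY1, HEY2, JAG2, DLL4 and NOTCH3. The same exact permutation tests gave p = 0.2 for NOTCH2 and NOTCH4 and p = 0.5 for NOTCH1 and JAG1. No single gene could reach 0.05 in this design.

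The rest of the pathway was read from 8 lists of 79 genes ordered by role, of which 64 could be tested. Of these 19 were called higher and 10 lower, or 29.7% and 15.6%, beside the 18.7% and 16.8% of all tested genes. The median log2 fold change was 0.06. Without scramble replicate 1 the 19 became 11. With no lower limit on FPKM, NCSTN, LFNG, NEDD4, MAML1, KAT2B and POFUT1, named as higher in what follows, did not pass (adjusted p 0.055 to 0.111).

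**Figure D4:**
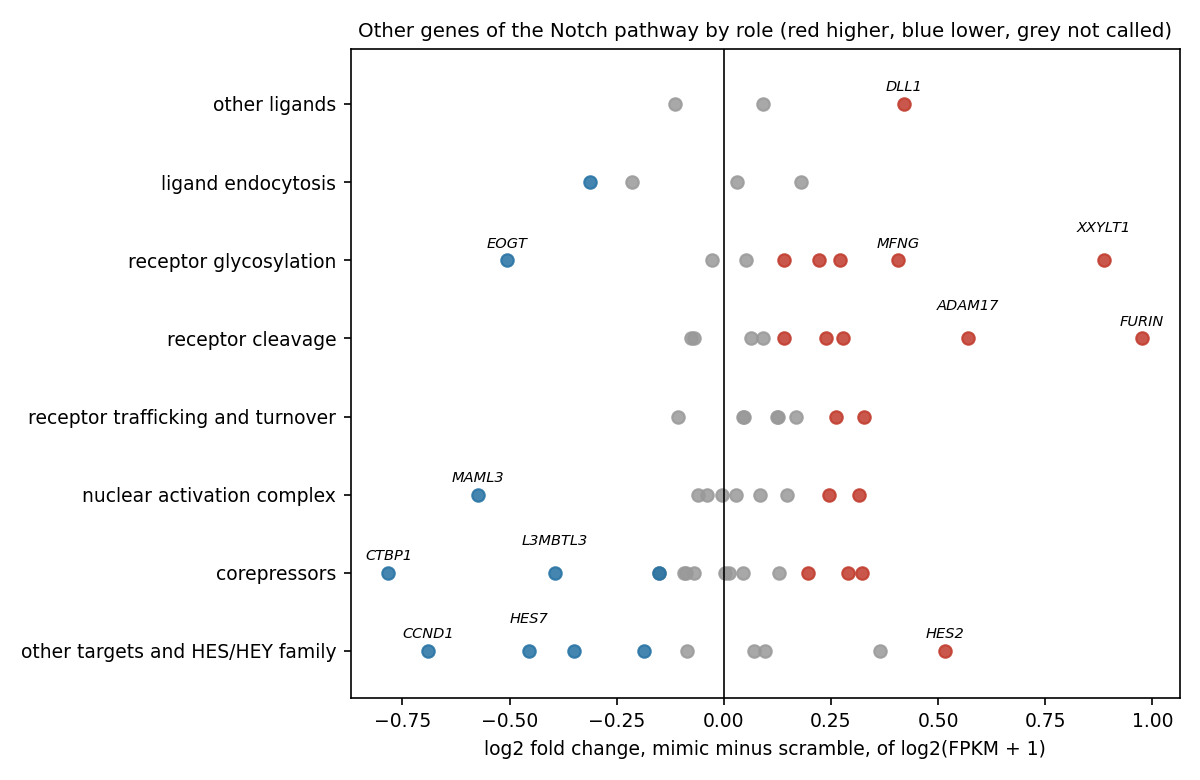
Log2 fold change, mimic minus scramble, of the 64 tested genes of the pathway outside the 10, 1 point per gene, by role (red higher, blue lower, grey not called). Receptor cleavage has 5 genes higher and none lower, and FURIN (0.98) and XXYLT1 (0.89) lie farthest to the right.

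Of 9 genes that cut the receptor, 5 rose and none fell. FURIN, the convertase that cleaves the receptor on its way to the surface, was at 55.9, 51.7 and 50.9 FPKM with scramble and at 104.1, 102.7 and 107.6 with mimic. The FURIN groups lay far apart, with a log2 fold change of 0.98 (SE 0.046, adjusted p = 1.6e-05). ADAM17, a surface protease that can cut Notch, rose from 9.07 ± 0.801 to 13.9 ± 0.623 FPKM (log2 0.57, adjusted p = 0.00055). ADAM10, the protease known for ligand-dependent cleavage, measured 5.55 ± 0.439 and 5.84 ± 0.416 FPKM (log2 difference 0.06, adjusted p = 0.511). In the gamma-secretase complex NCSTN (0.28) and APH1B (0.24) rose, and PSEN2 (0.09, adjusted p = 0.234) did not pass. APH1A (-0.08, adjusted p = 0.161) and PSENEN (-0.07, adjusted p = 0.459) had negative differences and did not pass either. APH1A had a mean of 51.4 FPKM over the 6 libraries, above that of NCSTN (35.8). Every mimic library of APH1A was below every scramble library, whereas the PSENEN groups overlapped. NCSTN no longer passed when mimic replicate 3 or scramble replicate 1 was left out (adjusted p up to 0.057), nor did APH1B when scramble replicate 1 was (0.054).

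Of 8 tested enzymes that add sugars to the receptor, 5 rose and 1 fell. XXYLT1, which extends the glucose chains on EGF repeats with xylose, was at 6.10, 5.80 and 5.58 FPKM with scramble and at 11.5, 11.5 and 11.8 with mimic. Its groups did not overlap (log2 0.89, SE 0.045, adjusted p = 1.7e-05). MFNG and LFNG belong to the Fringe family, which sets how a receptor answers to Delta and Jagged ligands. MFNG rose from 64.4 ± 2.30 to 85.7 ± 3.82 FPKM (log2 0.41), and LFNG rose by 0.27 on the log2 scale. The third Fringe gene, RFNG, measured 4.26 ± 0.437 and 4.15 ± 0.171 FPKM (log2 difference -0.03, adjusted p = 0.777). The LFNG call ended when mimic 1, mimic 3, scramble 1 or scramble 2 was left out (adjusted p up to 0.083). EOGT, which adds O-linked GlcNAc to EGF repeats, fell from 11.04 ± 0.924 to 7.46 ± 0.0639 FPKM (log2 -0.51).

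Of the other ligands 3 of 5 could be tested. DLL1, the Delta-type ligand best known from somites and neural tissue, was at 1.87, 1.63 and 1.90 FPKM with scramble and at 2.90, 2.79 and 2.55 with mimic. DLL1 rose (log2 0.42, adjusted p = 0.0023), and its groups did not overlap, whereas DLL4, the other Delta-type ligand above the limit, fell. DLL3 was listed at 0 in every library and DLK1 was at most 0.00352 FPKM. Of 4 tested genes of ligand endocytosis, EPN2, an epsin, fell (log2 -0.31). The ubiquitin ligase MIB1, which ligands need for signalling, measured 3.63 ± 0.437 and 2.98 ± 0.232 FPKM (log2 difference -0.21, adjusted p = 0.077).

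In the nuclear activation complex 2 of 9 rose and 1 fell. RBPJ, the DNA-binding partner of the receptor, measured 2.94 ± 0.0899 FPKM with scramble and 3.37 ± 0.285 with mimic (log2 difference 0.15, adjusted p = 0.098). The Mastermind coactivators went opposite ways. MAML1 rose from 5.10 ± 0.514 to 6.58 ± 0.417 FPKM (log2 0.31), and MAML3 fell from 4.59 ± 0.198 to 2.75 ± 0.143 (log2 -0.57, adjusted p = 0.00024). KAT2B, an acetyltransferase, rose by 0.24 on the log2 scale but no longer passed when mimic 1, mimic 3, scramble 1 or scramble 2 was left out (adjusted p up to 0.067).

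Of 14 corepressors 3 rose and 3 fell. CTBP1, a corepressor brought to RBPJ by adaptor proteins, was at 9.90, 9.74 and 9.58 FPKM with scramble and at 5.40, 4.93 and 5.40 with mimic. The CTBP1 groups lay far apart (log2 -0.78, SE 0.048, adjusted p = 3.7e-05). L3MBTL3, a chromatin protein that binds RBPJ, fell by 0.40. HDAC1, a histone deacetylase, rose by 0.32, and TLE2, of the Groucho family that HES proteins recruit, rose by 0.29. Of 8 tested genes of receptor trafficking and turnover, FBXW7, which marks the cut receptor for degradation, rose by 0.33, and the ubiquitin ligase NEDD4 by 0.26. The NEDD4 call ended when mimic 1, mimic 2, scramble 1 or scramble 3 was left out (adjusted p up to 0.089). NUMB, an inhibitor of Notch, measured 16.2 ± 0.545 and 16.8 ± 0.700 FPKM (log2 difference 0.05).

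Of 18 other targets and relatives of HES and HEY, 9 could be tested, and 1 rose and 4 fell. HES2 was at 3.44, 3.46 and 3.38 FPKM with scramble and at 5.63, 4.82 and 5.58 with mimic, and rose by 0.52 on the log2 scale (adjusted p = 0.00065). HES7, known from the segmentation clock, was at 21.3, 22.3 and 23.8 FPKM with scramble and at 16.8, 14.9 and 16.7 with mimic, and fell (log2 -0.45, adjusted p = 0.0011). CCND1, which codes for cyclin D1, fell by 0.69, and MYC fell by 0.35; both respond to many pathways besides Notch. HES4 measured 5.99 ± 1.31 and 8.02 ± 1.81 FPKM with overlapping groups (log2 difference 0.36, adjusted p = 0.127). NRARP, a feedback inhibitor induced by Notch in many cell types, measured 0.784 ± 0.0907 and 0.688 ± 0.207 FPKM (log2 difference -0.09, adjusted p = 0.532). HES3 and HEYL were listed at 0 in every library, and HES5 was at most 0.0488 FPKM. The HES and HEY family therefore had members higher (HES1, HES2, HEY2), lower (HES7) and at 0 in the same libraries.

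The profiles most like those of HES1 and NOTCH2, the tested genes of the 10 with the largest rise and fall on the log2(FPKM + 1) scale, were sought among 12138 other tested genes with a symbol, by the root mean square difference of centred values on that scale over the 6 libraries. By ratio of means DLL4 (0.739) was slightly lower than NOTCH2 (0.744), and the untested NOTCH3 (0.221) was lowest. Nearest to HES1 were SIGLEC11 (0.07), TP53INP1 (0.08) and MMRN2 (0.08), with log2 fold changes of 0.83, 0.82 and 0.87. MMRN2, an endothelial matrix protein, went from 7.36 to 14.3 FPKM. Nearest to NOTCH2 were ATXN1L (0.04), LINC02057 (0.05) and BANF1P3 (0.05), with log2 fold changes of -0.44, -0.49 and -0.42. Fold changes close to those of HES1 and NOTCH2 follow from this way of choosing genes and are not a separate result. BANF1P3 is a pseudogene, and reads of BANF1 may have been counted for it.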

How the data were processed

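The authors deposited FPKM values for 58051 Ensembl genes in 6 libraries, of which 27635 genes were at 0 in all, and 0 columns belonged to other samples. Trimmomatic 0.39, HISAT2 2.1.0, featureCounts 2.0.1, DESeq2 1.26.0 and the build GRCh38 are named per the submitters' processing notes. For the annotation release, the strand setting and the way FPKM was computed, the answer is "not given in the sources used here". Per the labels' protocols, RNA was extracted with TRIzol. The authors' deposited comparison table, per the file headers, holds a log2 fold change with its error, a test statistic (a score), p-values and a mean of normalized counts for 401 genes; it is a filtered list (smallest absolute log2 fold change 1.00, largest adjusted p 0.0499). Its fold change had the sign of mimic minus scramble FPKM in all 401 genes, whereas its test statistic had the opposite sign to the fold change in all 401. The direction of that table is therefore read from the fold change, and the labels' conflict between knockdown and mimic is not settled by it.

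Symbols and positions came from GENCODE 29 and a symbol table (57447 identifiers matched), and promoter sequences from RefSeq (GRCh38.p14). FPKM multiplied by GENCODE 29 exon length gave whole reads, within 0.02 reads, for 95.3% to 95.6% of values under 100 reads. The reads of NOTCH1, NOTCH2, JAG1 and DLL4 did not come out whole and are not printed. Whether mates of a pair were counted separately was not tested.

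FPKM is not a count, so the test was limma 3.58.1 under R 4.3.3, using its variance trend, on log2(FPKM + 1). It covered 12912 genes whose mean over the libraries reached 0.5 FPKM, and group was the only term. Fold changes on this scale understate changes of low genes. The fit was tested on simulated data. The 10 genes, the lists and the naming rule were chosen with earlier results of these data known. From each pathway list the rule names the called genes, or the 4 with the largest change, and up to 2 abundant genes not called. Other named genes (ADAM10, APH1A, PSENEN, MIB1, RBPJ, NRARP, DLL3, DLK1, HES3, HES5, HEYL and those under other observations) were chosen after their values were seen. Alternatives changed the pseudocount, lower limit, scaling, variance model, replicate block, unit and single libraries. The value of 1 called gene of receptor cleavage is not reported here.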

Additional observations from a re-analysis of the deposited data

How the results depend on the processing

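The values were recomputed under 20 alternatives, 1 of them (voom on reads of genes with at least 10 reads) chosen after seeing the data. No log2 fold change of the 8 tested genes, NOTCH3, NOTCH4 or the 29 called pathway genes reversed. HES1, HEY2, JAG2 and DLL4 stayed past the threshold wherever they could be tested, and 18 of the 29 pathway genes did too. Over all genes 3290 to 5068 passed, against 4584. Members called higher numbered 3, with 2 at a limit of 1 FPKM (JAG2 not tested), 1 at 5 FPKM (JAG2 and HEY2 not tested) and 4 without a variance trend (HEY1 added); leaving out 1 library gave 3 to 3. Members called lower numbered 2, and 1 without a limit, at limits of 0.1 or 5 FPKM, on the TPM scale, without a variance trend and with robust moderation; leaving out 1 library gave 1 to 3. DLL4 is not tested at 5 FPKM, and in the other 5 cases the gene lost was NOTCH2: its log2 fold change of -0.40 did not pass without a limit, at 0.1 FPKM, on the TPM scale (-0.40), without a trend or with robust moderation, and was -0.51 to -0.28 without 1 library. The NOTCH1 log2 fold change was -0.18 to -0.033 without 1 library. HEY1 (0.17) passed without a variance trend. NOTCH3 was at -2.66 with voom on reads. Pathway genes called higher numbered 11 to 17 without 1 library, against 19, and those lower 6 at a limit of 5 FPKM, against 10, and 9 to 12 without 1 library. Deviations of same-numbered libraries from their group means correlated at -0.06, 0.24 and 0.05, beside -0.27 to 0.23 for differently numbered ones. With 3 libraries per group these values cannot decide whether the numbers pair the libraries. Under the replicate block 4609 genes passed and the 8 tested genes kept their calls. The lower limit leaves NOTCH3 and NOTCH4 out of the test.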

Other observations

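Among the 29 called pathway genes, 5 more are given here, with adjusted p from limma. POFUT1, which adds the fucose that Fringe enzymes extend, measured 28.9 ± 0.101 and 31.9 ± 1.38 FPKM (log2 0.14), and GXYLT1, which adds the first xylose, 4.71 ± 0.335 and 5.66 ± 0.144 (log2 0.22). POFUT1 lost its call under 7 alternatives (adjusted p up to 0.092), and GXYLT1 without mimic replicate 1 or scramble replicate 1 (up to 0.065).

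The Groucho genes went both ways: TLE1 fell from 25.4 ± 0.117 to 22.7 ± 0.316 FPKM (log2 -0.15) and kept its call in all 20 alternatives, while TLE4 measured 3.30 ± 0.0748 and 3.93 ± 0.192 (log2 0.20) and no longer passed when mimic 2, mimic 3, scramble 1 or scramble 3 was left out (up to 0.073). UNC5B, a netrin receptor of vessels, measured 3.64 ± 0.294 and 3.07 ± 0.122 FPKM (log2 -0.19, limma adjusted p = 0.0496) and lost its call under 9 of 19 alternatives (up to 0.152), the replicate block among them (0.054).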
